A study of Mus musculus with 14 samples.

Results

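The genes described here are 4 pseudogenes whose reads were far more abundant in Myf6 knockout (KO) than in wild-type (WT) mouse muscle, with 1 of their parent genes beside them. Rps3a3, Gm15920, Gm11942 and BC002163 were chosen by name for that difference, and Rps3a1 was taken along as the parent of Rps3a3, which makes 5 genes of the 49585 in the RNA-seq tables. The levels that chose the 4 pseudogenes are therefore given as a description without a test for KO against WT. Tests are given for Rps3a1 and other parent genes between genotypes, and for all 5 genes between injured and uninjured muscle.

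The study measured RNA in hind limb skeletal muscle of mice that were WT or KO for Myf6 (also called MRF4), a basic helix-loop-helix transcription factor of the muscle lineage. Muscle was taken without injury or after injury, which gave 4 groups (WT uninjured, KO uninjured, WT injured and KO injured) of 3 libraries each. The KO allele, strain, age, sex, kind of injury and time after it are not given in the sources used here. Within a genotype the uninjured and injured libraries carry the same 3 numbers, with the letters L and R, and were read as the opposite legs of 3 animals. WT and KO libraries come from different numbers, so genotype and any difference in litter or strain background between those animals cannot be told apart. With 3 numbered animals per genotype, the p-values measure the spread between these samples. In bulk tissue, fewer cells of a type and less RNA per cell cannot be told apart.

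A processed pseudogene is a copy of an mRNA that was reverse transcribed and inserted elsewhere in the genome. It lacks the introns of its parent gene and usually its promoter, and it can stay so similar to the parent mRNA that a short read matches both. Ribosomal protein genes are known for having many such copies. Rps3a1 encodes ribosomal protein S3A, a component of the small (40S) ribosomal subunit. Ndufa12 and Ndufs5 encode accessory subunits of complex I, the NADH dehydrogenase of the mitochondrial respiratory chain, which is abundant in muscle.

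Rps3a1 (ENSMUSG00000028081.6) is a protein coding gene on chromosome 3, from 86137940 to 86142668, in the RefSeq gene table of build GRCm38.p6, and 2 small nucleolar RNA genes, Snord73a and Snord73b, lie within it. Rps3a3 (ENSMUSG00000059751.7) is listed as a pseudogene of 864 bp on chromosome 13, from 108670580 to 108671443, inside the span of the phosphodiesterase gene Pde4d. Gm15920 (ENSMUSG00000080893.1) is listed under the symbol Ndufa12-ps, which names Ndufa12 as its parent. It is a pseudogene of 496 bp on chromosome 5, from 130188393 to 130188888, inside the span of Rabgef1. Gm11942 (ENSMUSG00000094344.1) is a pseudogene of 468 bp on chromosome 4, from 32964806 to 32965273, with no overlapping gene and no parent named in the table. BC002163 (ENSMUSG00000081824.5) was not matched in that table, and Ndufs5 is set beside it as a candidate parent from general knowledge. How reads with several matches were counted, and whether strand was used, are not given in the sources used here, so the split of reads between a parent and its copy is uncertain for every pair below. A copy's reads also cannot be told apart from those of an overlapping gene without strand.

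Promoter sequences were held for Rps3a1 and Ndufa12, the parents of Rps3a3 and Gm15920. They are shown because the E-box CANNTG, the core letters bound by Myf6 and its relatives, can be looked for there. Each runs from 250 bases before to 50 bases after the annotated start (RefSeq, GRCm38.p6), 5′ to 3′ on the gene's strand, and capitals mark CANNTG. The Rps3a1 window is chr3:86142619-86142918 on the minus strand and the Ndufa12 window is chr10:94198785-94199084 on the plus strand.
Rps3a1: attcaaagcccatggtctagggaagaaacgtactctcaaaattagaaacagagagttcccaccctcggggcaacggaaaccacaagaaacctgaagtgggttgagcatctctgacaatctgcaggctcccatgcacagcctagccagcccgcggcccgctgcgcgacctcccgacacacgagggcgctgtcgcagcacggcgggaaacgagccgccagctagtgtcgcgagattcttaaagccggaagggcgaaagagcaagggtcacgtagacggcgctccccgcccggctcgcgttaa
Ndufa12: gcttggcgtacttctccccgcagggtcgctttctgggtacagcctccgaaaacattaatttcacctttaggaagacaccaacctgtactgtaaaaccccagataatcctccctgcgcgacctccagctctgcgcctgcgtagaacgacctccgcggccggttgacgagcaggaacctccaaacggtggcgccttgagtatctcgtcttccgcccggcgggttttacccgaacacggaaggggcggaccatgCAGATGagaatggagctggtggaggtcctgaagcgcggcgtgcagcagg
The Rps3a1 window held 0 matches, and the Ndufa12 window held 1, which begins at base 252 of the 300, just after the start. CANNTG reads the same on both strands, and 72.3% of 32851 promoter windows of this length held at least 1 match, so its presence or absence here is only a description.

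The libraries held from 1880087 reads (WT uninjured replicate 2) to 49392472 reads (KO injured replicate 3). Levels are in RPM (reads scaled to a fixed total per library), and 3 reads were worth between 0.0607 and 1.60 RPM. Myf6, the targeted gene, was at 25.0 to 121 RPM in the 6 WT libraries and at 1.86 to 3.46 RPM in the 6 KO libraries, a change of -3.90 on the log2(RPM + 1) scale in uninjured muscle (limma adjusted p = 0.0215) and -4.22 in injured muscle (limma adjusted p = 0.00697). All 8 skeletal muscle markers looked for were present in every library, at 181.4 RPM or more. Markers of 6 other cell types, 2 for each, were also present with 0 of them at 0 in any library, and their summed levels ran from 2.52 to 9.88 RPM for macrophages to 53.4 to 696 RPM for Schwann cells. Some sums separated the genotypes: the muscle markers summed to 132400 to 145400 RPM in WT and 177400 to 204700 RPM in KO uninjured muscle, the macrophage markers to 7.98 to 9.88 and 2.52 to 6.41 RPM in the same groups, and the endothelial markers to 92.2 to 135 RPM in WT and 148 to 243 RPM in KO injured muscle. Their part in the results below was not tested.

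Rps3a3 was at 1.20 RPM or less in every WT library and at 70.4 RPM or more in every KO library. Its level was 0.772, 1.06 and 0.791 RPM in WT uninjured replicates 1, 2 and 3, from 24, 2 and 24 reads. It was 169, 417 and 70.4 RPM in KO uninjured replicates 1, 2 and 3, from 4435, 5298 and 3013 reads. In injured muscle it was 1.20, 1.16 and 0.651 RPM in the WT replicates and 95.8, 343 and 83.4 RPM in the KO replicates. The genotypes did not overlap in either injury state, and KO replicate 2 was the highest in both. The group means were 0.876 ± 0.163 and 219 ± 179 RPM in uninjured WT and KO muscle and 1.004 ± 0.307 and 174 ± 146 RPM in injured WT and KO muscle (SD, n = 3). The log2(RPM + 1) difference was 6.52 (SE 0.56) and 6.15 (SE 0.52), and the ratio of mean RPM was 250 and 173. In the authors' deposited table the log2 fold change of Rps3a3, turned to KO over WT, was 8.49 in uninjured and 7.44 in injured muscle.

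The parent gene Rps3a1 was lower in every KO library than in every WT library. Its level was 431, 378 and 509 RPM in WT uninjured replicates 1, 2 and 3, and 314, 117 and 270 RPM in the KO replicates. In injured muscle it was 365, 409 and 429 RPM in the WT replicates and 311, 107 and 303 RPM in the KO replicates. KO replicate 2 was again the library apart, here as the lowest. The difference did not pass the threshold of 0.05 after adjustment over all genes tested by limma. It was -1.02 on the log2(RPM + 1) scale (SE 0.37, 95% interval -1.86 to -0.17, limma adjusted p = 0.26) in uninjured muscle and -0.88 (SE 0.41, 95% interval -1.86 to 0.09, limma adjusted p = 0.53) in injured muscle. Without KO replicate 2 the difference was -0.58 and -0.38 (limma adjusted p = 0.303 and 0.0883). Of all genes tested, 15.5% in uninjured and 8.63% in injured muscle had every KO library below every WT library, so the separation of Rps3a1 within a single state is not rare. The share of genes separated in both states was not counted.

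**Figure D1:**
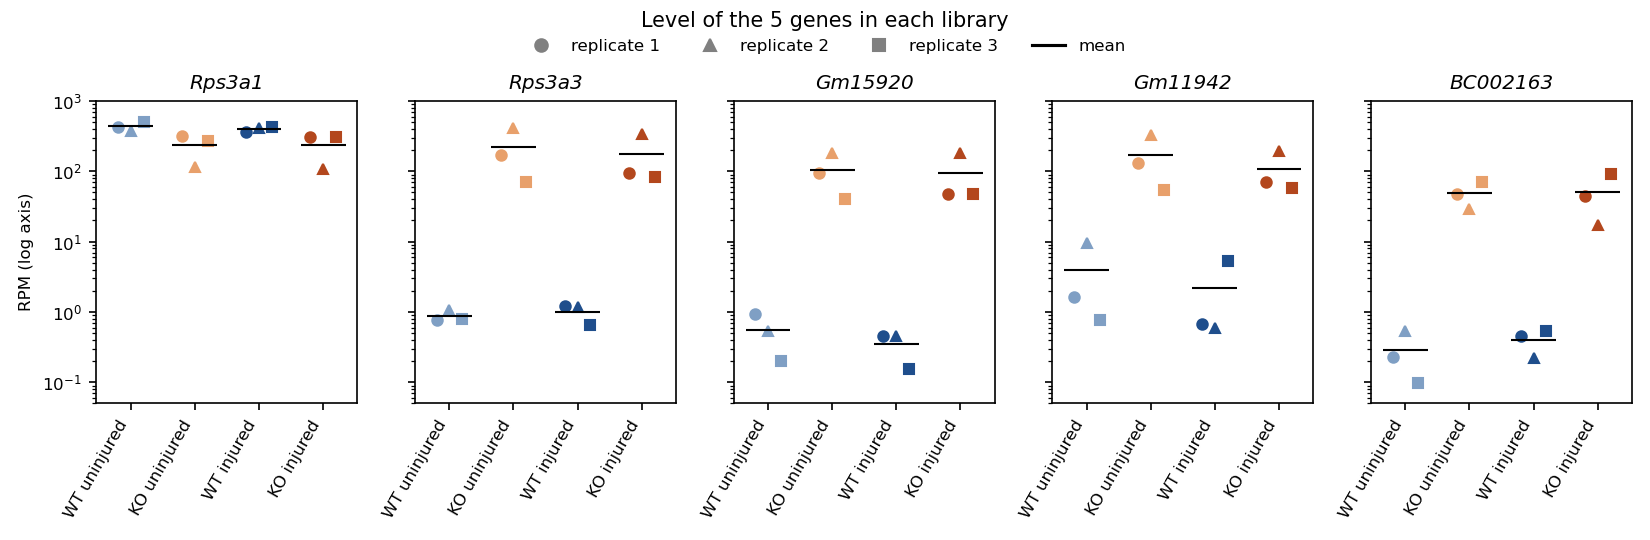
Level of each of the 5 genes in RPM (log axis) in the 4 groups; each point is 1 library, its shape gives the replicate number and the black line is the group mean of 3 libraries. The 4 pseudogenes lie between 17.0 and 417 RPM in KO and at or below 9.57 RPM in WT muscle, while Rps3a1 lies between 107 and 314 RPM in KO and between 365 and 509 RPM in WT muscle.

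Reads of Rps3a1 and Rps3a3 added together were at nearly the same level in both genotypes. The sum was 440 ± 66.2 RPM in WT and 452 ± 100 RPM in KO uninjured muscle, and 402 ± 32.5 RPM in WT and 414 ± 32.4 RPM in KO injured muscle (SD, n = 3), a KO over WT ratio of 1.03 in both states, with overlapping ranges. Between the group means, the KO minus WT difference was -205.5 RPM for Rps3a1 and 217.8 RPM for Rps3a3 in uninjured muscle, and -160.4 and 173.0 RPM in injured muscle. Leaving out each library in turn moved the log2 ratio of the sums between -0.10 and 0.21 in uninjured and between -0.02 and 0.10 in injured muscle.

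The share of the pair's reads counted at Rps3a3 was 0.15 to 0.33% in the 6 WT libraries. In KO uninjured replicates 1, 2 and 3 it was 34.9% (95% Wilson interval 34.1 to 35.8), 78.1% (77.1 to 79.1) and 20.7% (20.02 to 21.3). In KO injured replicates 1, 2 and 3 it was 23.6% (22.9 to 24.3), 76.2% (75.2 to 77.1) and 21.6% (21.0 to 22.2). The intervals cover counting error only, and the differences between KO animals were many times wider, so the share was not uniform across the KO group. KO replicate 2 had most of the pair's reads at the pseudogene in both legs, and the other KO animals had most at the parent. These are shares of reads and not of molecules. A further copy named after the same gene, the pseudogene Rps3a2 on chromosome 14, was at most 0.532 RPM in any library and too low to be tested.

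Gm15920 followed Rps3a3 closely. It was 0.933, 0.532 and 0.198 RPM in WT uninjured replicates 1, 2 and 3 and 94.2, 182 and 39.8 RPM in the KO replicates. In injured muscle it was 0.450, 0.449 and 0.153 RPM in the WT replicates and 48.0, 184 and 47.8 RPM in the KO replicates. No WT library reached the lowest KO library, and KO replicate 2 was the highest in both states. The log2(RPM + 1) difference was 5.87 (SE 0.52) in uninjured and 5.83 (SE 0.52) in injured muscle, and the means of KO over WT stood in ratios of 190 and 266.

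Its parent Ndufa12, an accessory subunit of complex I, was lower in every KO library. Ndufa12 was 331, 463 and 287 RPM in WT uninjured replicates 1, 2 and 3, and 217, 167 and 191 RPM in the KO replicates. The injured WT replicates had 365, 274 and 341 RPM and the injured KO replicates 185, 142 and 158 RPM. The log2 difference was -0.89 (SE 0.27, limma adjusted p = 0.196) and -1.01 (SE 0.19, limma adjusted p = 0.152), so neither passed the threshold, although the authors' deposited table gives Ndufa12 a q of 0.0067 in injured muscle. Adding Gm15920 to Ndufa12 did not bring the KO mean up to the WT mean: the sum was 361 ± 91.6 RPM in WT and 297 ± 60.2 RPM in KO uninjured muscle, and 327 ± 47.0 and 255 ± 62.9 RPM in injured muscle (SD, n = 3), with overlapping ranges and ratios of 0.823 and 0.78. The log2 ratio in uninjured muscle, -0.28, was -0.06 without WT replicate 2. Gm15920 held 30.3, 52.2 and 17.3% of the pair's reads in KO uninjured replicates 1, 2 and 3, and 20.6, 56.4 and 23.2% in the injured ones. Its share in the 6 WT libraries was between 0.045 and 0.281%.

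BC002163 differed from the others in which KO animal was highest. It was 0.225, 0.532 and 0.0988 RPM in WT uninjured replicates 1, 2 and 3 and 47.3, 28.7 and 71.0 RPM in the KO replicates. In injured muscle it was 0.450, 0.225 and 0.536 RPM in the WT replicates and 43.9, 17.0 and 92.7 RPM in the KO replicates. KO replicate 3 was the highest and KO replicate 2 the lowest in both states, the reverse of Rps3a3 and Gm15920 for replicate 2. The log2(RPM + 1) difference was 5.20 (SE 0.41) and 4.92 (SE 0.55), and the means of KO over WT stood in ratios of 172 and 127.

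Ndufs5, the candidate parent of BC002163, showed no difference between genotypes that passed the test. Its mean was 145 ± 45.6 RPM in WT and 178 ± 60.8 RPM in KO uninjured muscle, and 157 ± 28.3 RPM in WT and 123 ± 24.5 RPM in KO injured muscle (SD, n = 3). The log2 difference was 0.28 (95% interval -0.54 to 1.09, limma adjusted p = 0.776) and -0.35 (95% interval -0.89 to 0.19, limma adjusted p = 0.644). With BC002163 added, the KO sum was 1.56 times the WT sum in uninjured and 1.11 times in injured muscle, with overlapping ranges. The log2 ratio in injured muscle, 0.15, was 0.38 without KO replicate 2 and turned to -0.06 without KO replicate 3. BC002163 held 12.2 to 39.6% of this pair's reads in the KO uninjured and 15.0 to 42.0% in the KO injured libraries.

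Gm11942 was the member with the most uneven WT level. It was 1.61, 9.57 and 0.758 RPM in WT uninjured replicates 1, 2 and 3, where the 9.57 RPM stand for 18 reads in the shallowest library, and 131, 329 and 54.4 RPM in the KO replicates. In injured muscle it was 0.675, 0.599 and 5.32 RPM in the WT replicates, the last from 139 reads, and 69.8, 195 and 58.3 RPM in the KO replicates. The 2 higher WT values were still well below every KO library. The log2(RPM + 1) difference was 5.20 (SE 0.76) and 5.19 (SE 0.66), and the means of KO over WT stood in ratios of 43.1 and 48.9, the smallest of the 4.

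**Figure D2:**
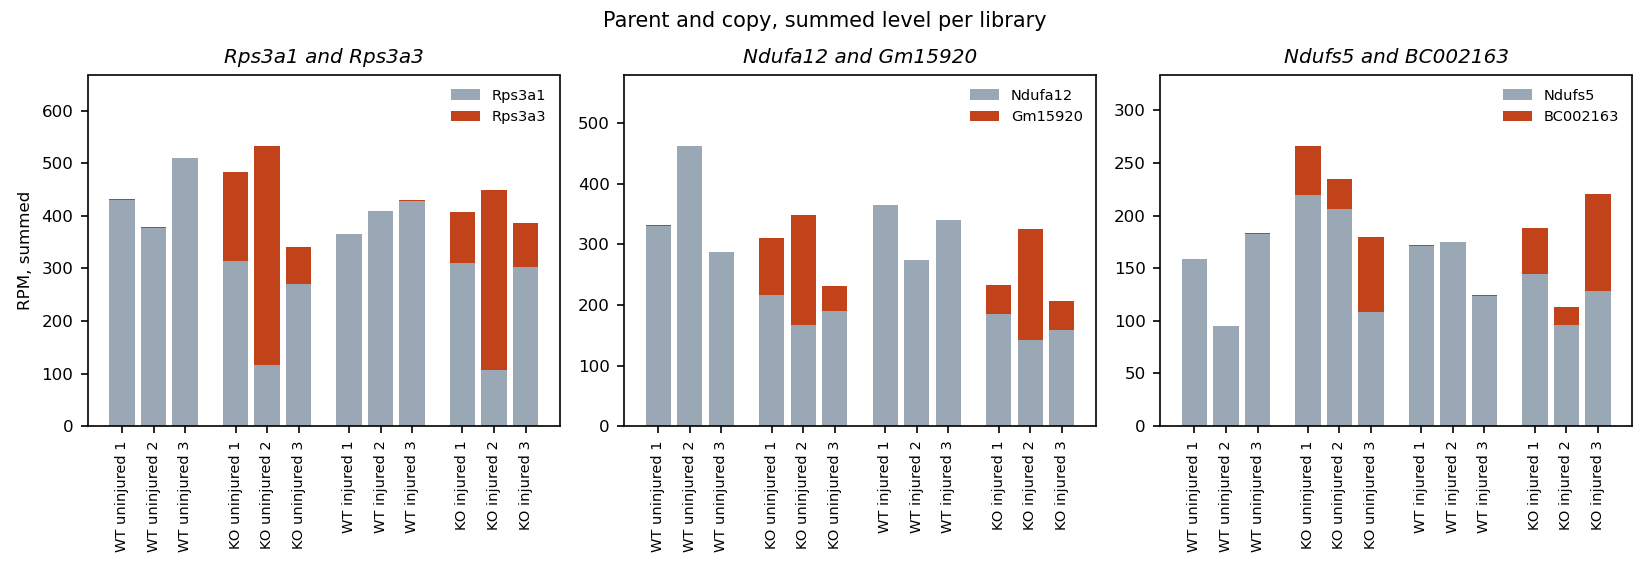
Summed level in RPM of a parent gene (grey) and its pseudogene (red) in each of the 12 libraries, for Rps3a1 with Rps3a3, Ndufa12 with Gm15920, and Ndufs5 with BC002163. The Rps3a1 and Rps3a3 bars reach 341 to 534 RPM in KO and 366 to 510 RPM in WT muscle, with the largest red portion, 78.1% of reads, in KO uninjured replicate 2.

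All 4 pseudogenes had every KO library above every WT library in both injury states, a count that the choice of members fixes. The same separation held for 6.2% of the 12460 genes tested in uninjured muscle and for 8.29% of the 12625 genes tested in injured muscle. The pseudogenes passed the filter on low values (at least 1 RPM in at least 3 libraries) mainly through the KO group, where they are high. Gm15920 and BC002163 passed it only through that group, since their highest WT values were 0.933 and 0.536 RPM.

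The KO animals kept their order between the uninjured and the injured leg in all 5 genes. Rps3a3, Gm15920 and Gm11942 ran from replicate 2 through 1 to 3, Rps3a1 and Ndufa12 ran from 1 through 3 to 2, and BC002163 ran from 3 through 1 to 2. Of 13337 genes, 28.1% had the same order of the 3 KO animals in both legs. Across the 6 KO libraries, which are 3 animals with 2 legs each, Pearson's r of log2(RPM + 1) was 0.993 between Rps3a3 and Gm15920, 0.987 between Rps3a3 and Gm11942 and -0.869 between Rps3a3 and BC002163. Rps3a1 had an r of -0.878 with Rps3a3 and 0.838 with BC002163 over these libraries. Over all 12 libraries, where the difference between genotypes enters, the r of Rps3a3 with BC002163 was 0.912.

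The share of reads on mitochondrially encoded genes followed the order of the first 3 pseudogenes in the KO group. It was 6.76, 15.3 and 3.63% in KO uninjured replicates 1, 2 and 3 and 4.95, 23.2 and 4.30% in the KO injured ones. In the WT libraries it lay between 8.35 and 22.3%, and Rps3a3 was at 1.20 RPM or less in all of them. The part of the mitochondrial share in the differences between KO animals was not tested.

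**Figure D3:**
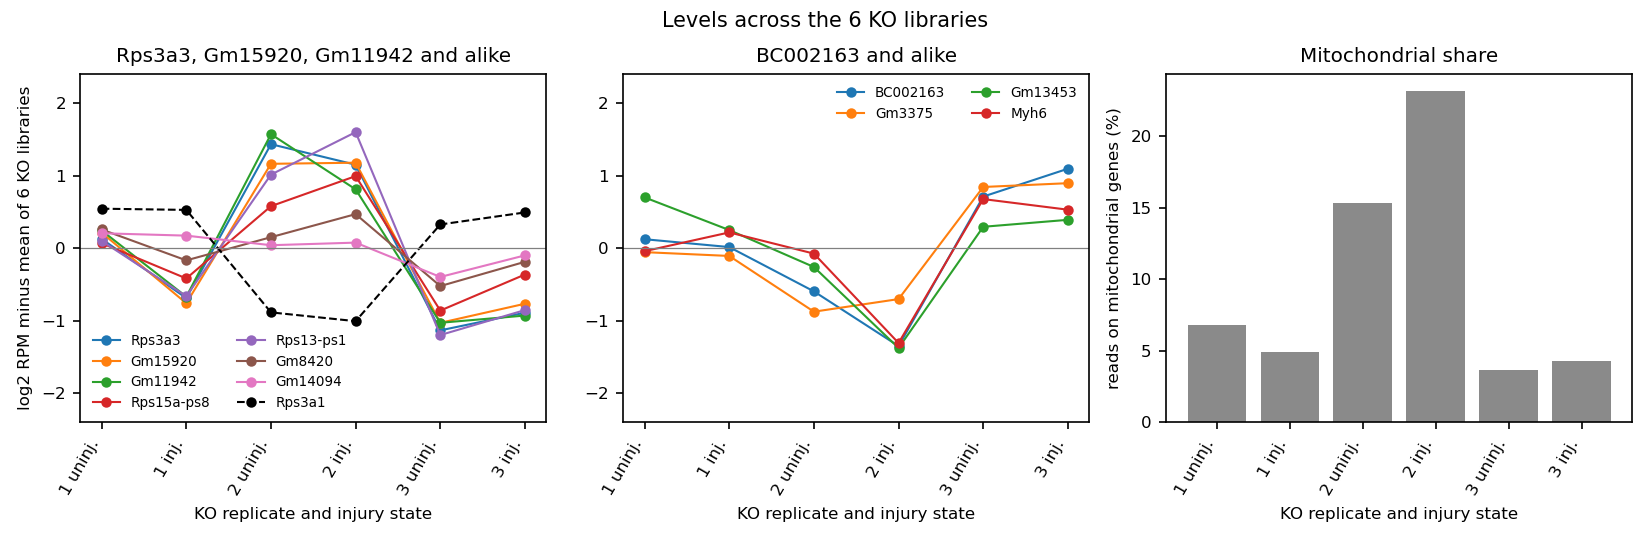
Left and middle, log2 of the RPM minus its mean over the 6 KO libraries, for Rps3a3, Gm15920, Gm11942 and the genes most like them with Rps3a1 dashed, and for BC002163 and the genes most like it; right, percent of reads on mitochondrial genes in the same libraries. Rps3a3 peaks and Rps3a1 dips in both legs of KO replicate 2, where the mitochondrial share is 15.3 and 23.2%, while BC002163 peaks in replicate 3.

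The genes whose pattern was most like each pseudogene over the 12 libraries were mostly other pseudogenes. Among 13332 genes compared by Pearson's r of log2(RPM + 1), Rps15a-ps8 came closest to Rps3a3 (r = 0.996), to Gm15920 (r = 0.995) and to Gm11942 (r = 0.966). Gm8420 and Rps13-ps1 came next for Rps3a3 and Gm15920, and Gm14094 and Rps13-ps1 for Gm11942. The r values share the genotype difference and the libraries, and are a description. Rps15a-ps8, named after the 40S protein gene Rps15a, was at most 0.532 RPM in WT and was 20.7, 29.5 and 10.9 RPM in KO uninjured and 14.8, 39.3 and 15.4 RPM in KO injured replicates 1, 2 and 3. Rps13-ps1, named after the 40S protein gene Rps13, was 0.749 to 1.32 RPM in WT and was 34.0, 64.1 and 13.8 RPM in KO uninjured and 20.05, 96.1 and 17.6 RPM in KO injured replicates. Both again had KO replicate 2 as the highest. Gm8420 had replicate 2 as the highest in the injured leg only, and Gm14094 in neither leg. Gm8420 was 13.8, 12.8 and 8.04 RPM in KO uninjured and 10.3, 16.0 and 10.1 RPM in KO injured replicates 1, 2 and 3. Gm14094 was 6.35, 5.67 and 4.18 RPM and 6.21, 5.81 and 5.14 RPM, with replicate 1 highest in both states.

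BC002163 had other companions. Gm3375 (r = 0.995), Myh6 (r = 0.990) and Gm13453 (r = 0.987) were the most like it. Gm3375, a pseudogene on chromosome 7, was at most 0.230 RPM in WT and was 19.3, 10.9 and 36.0 RPM in KO uninjured and 18.6, 12.3 and 37.3 RPM in KO injured replicates 1, 2 and 3. Myh6, which encodes the alpha heavy chain of cardiac myosin, was 0.532 to 2.03 RPM in WT and was 180, 176 and 296 RPM in KO uninjured and 215, 74.8 and 267 RPM in KO injured replicates. Gm13453 was 25.4, 13.1 and 19.2 RPM in KO uninjured and 18.6, 6.03 and 20.5 RPM in KO injured replicates. Replicate 2 was the lowest for all 3 genes, as for BC002163. Replicate 3 was the highest for Gm3375 in both legs, for Myh6 in both legs and for Gm13453 in the injured leg, while replicate 1 was the highest for Gm13453 in the uninjured leg.

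Pseudogenes as a class showed calls in 1 direction in the main test, but most members of the class were too low to test. The gene table types 7323 names in the files as pseudogenes other than the members, and 182 of these in uninjured and 186 in injured muscle passed the filter, which a gene that is high in the KO group alone can also do. Of these, 8 rose in uninjured and 10 in injured KO muscle and 0 fell in either (limma adjusted p under 0.05), which is 4.4% and 5.38% of those tested. Of all genes tested, 0.128% rose in uninjured and 0.174% in injured KO muscle. The median log2 change of the class was 0.11 in uninjured and -0.01 in injured muscle, against -0.18 and 0.01 over all genes tested. The calls depended on the libraries: without KO replicate 2 there were 3 higher and 0 lower in uninjured and 9 higher and 14 lower in injured muscle. Without WT uninjured replicate 2, the shallowest library, or without KO uninjured replicate 3, 3 were called higher, and leaving out WT uninjured replicate 1 or 3, KO uninjured replicate 1 or any of the other 5 injured libraries left 0 calls. With no filter on low values, 0 were called in uninjured and 8 in injured muscle. The single direction also depended on the method. TMM scaling and edgeR called 0 lower in either state. DESeq2 called 20 higher and 2 lower in uninjured muscle, and 22 higher and 4 lower in injured muscle. A replicate block gave 23 higher and 3 lower in uninjured muscle, and 0 calls in injured muscle.

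In both injury states 15 genes were called in the same direction, 12 of them higher, and 8 of the 15 were typed as pseudogenes, while 185 of 12460 genes tested in uninjured and 189 of 12625 in injured muscle had that type. The 4 members chosen for their rise are among the 12, and Rps3a3, Gm15920 and Gm11942 among the 8, so these counts lend the members no support. Leaving out any injured library except KO replicate 2 left 0 genes called in injured muscle. Beside the members, 3 pseudogenes had the largest changes among those called in both states. They were Rps15a-ps8 (log2 change 4.03 and 4.40), Gm3375 (4.27 and 4.23) and Gm8420 (3.62 and 3.63), with limma adjusted p values between 0.00697 and 0.00783. Rps13-ps1 changed by more than Gm8420 (3.89 and 4.18) but was called in uninjured muscle only (limma adjusted p = 0.0215 and 0.0689). Myh6 rose by 6.64 and 6.40 on the same scale (limma adjusted p = 0.000206 and 0.00697).

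The gene table names the parent of some pseudogenes in the symbol, as in Rps13-ps1. Among 35 such copies tested in uninjured and 36 in injured muscle, 3 and 2 were called, all higher in KO, with Gm15920 among them in both states. Of the parents, 0 were called in either state, and Ccnb2, the parent of Ccnb2-ps, was too low to be tested. The median log2 change of the copies was 0.08 and 0.05, and a called rise was the exception among them. Rps15a was 364 ± 79.9 RPM in WT and 226 ± 52.6 RPM in KO uninjured muscle, and 340 ± 33.1 and 251 ± 10.8 RPM in injured muscle (SD, n = 3). Rps13 was 258 ± 54.2 RPM in WT and 145 ± 36.2 RPM in KO uninjured muscle, and 217 ± 33.2 and 142 ± 15.3 RPM in injured muscle. The changes of Rps15a (log2 -0.69, limma adjusted p = 0.309, and -0.43, adjusted p = 0.44) and Rps13 (log2 -0.83, adjusted p = 0.232, and -0.60, adjusted p = 0.357) did not pass the test. Rps13-ps1 held 9.72 to 34.7% and 10.4 to 43.6% of the reads of its pair in KO uninjured and injured libraries, and Rps15a-ps8 held 5.86 to 11.7% and 5.68 to 13.2% of its own. With parent and copy summed, KO over WT was 0.706 in uninjured and 0.859 in injured muscle for the Rps13 pair. For the Rps15a pair it was 0.677 and 0.808.

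**Figure D4:**
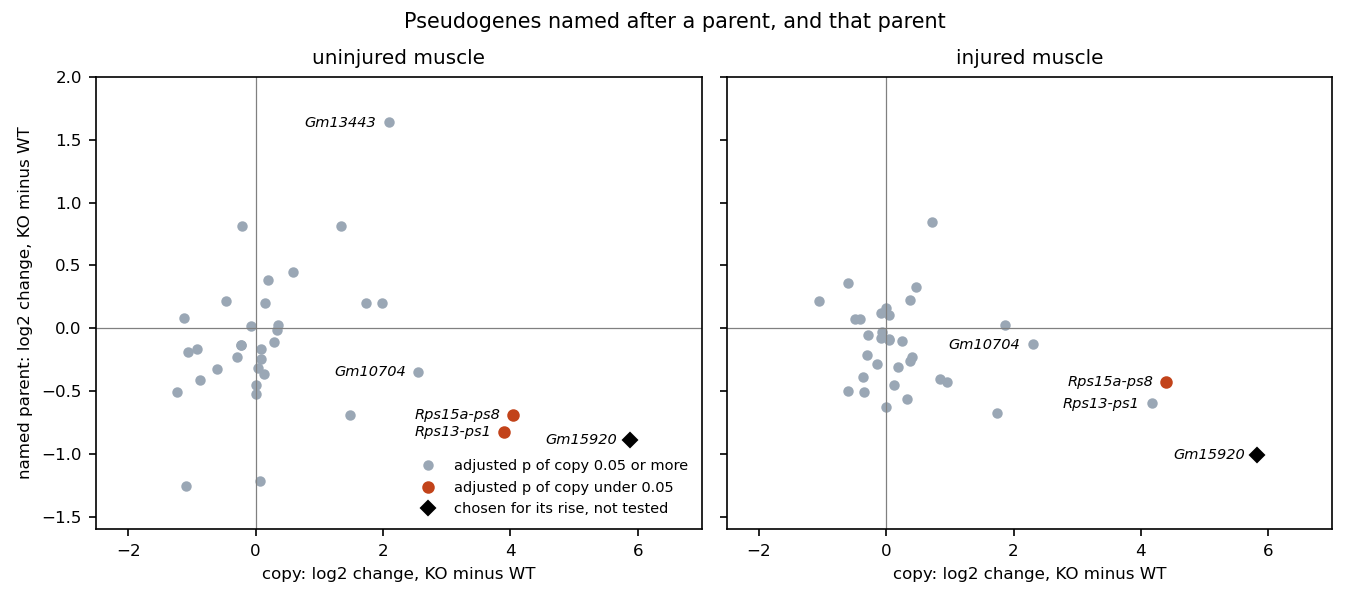
Log2(RPM + 1) change, KO minus WT, of pseudogenes named after a parent gene (x axis) against the change of that parent (y axis). Each point is 1 pair with both genes tested, from 35 copies tested in uninjured and 36 in injured muscle. Ccnb2-ps has no point in injured muscle because its parent Ccnb2 was not tested. Red points are copies with a limma adjusted p under 0.05 and the black diamond is Gm15920, which was chosen for its rise. Rps15a-ps8, Rps13-ps1 and Gm15920 lie farthest to the right with parents below 0. Other copies to the right have parents on either side of 0. In uninjured muscle these include Gm10704 (copy 2.55, parent Rtraf -0.35) and Gm13443 (copy 2.09, parent Glo1 1.64).

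The other 40S ribosomal protein genes gave a setting for Rps3a1. All 32 listed genes were tested, and 0 passed the threshold in either direction in either state; 3 in uninjured and 5 in injured muscle had an unadjusted limma p under 0.05, where 14.2% and 10.3% of all genes did. The median log2 change of the list was -0.23 in uninjured and -0.22 in injured muscle. The uninjured median followed the scaling of the libraries: it was -0.04 with TMM scaling (trimmed mean of M-values) and 0.14 with edgeR on the recovered reads, while the median of all genes moved from -0.18 to -0.02 and 0.00. The injured median stayed at -0.24 with TMM and -0.23 with edgeR, where all genes were at 0.005 and 0.033. Estimates were lower in KO for 24 of the 32 in uninjured and 26 in injured muscle. Every KO library was below every WT library for 5 in uninjured (15.5% of all genes) and 9 in injured muscle (8.63%). Rps3a1 had the lowest limma estimate of the 32 in both states. The next lowest were Rps12 in uninjured muscle (-0.83, limma adjusted p = 0.406) and Rps29 in injured muscle (-0.61, limma adjusted p = 0.54). The highest were Rpsa (0.38) and Rps6 (0.31) in uninjured and Rps4x (0.38) and Rps3 (0.11) in injured muscle, and the lowest limma adjusted p of these 4 was 0.635.

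The 36 listed complex I subunit genes, the group of Ndufa12 and Ndufs5, likewise held 0 calls in either state, with 5 genes at an unadjusted limma p under 0.05 in each. Their median log2 change was -0.19 in uninjured and -0.30 in injured muscle, and the uninjured value was 0.01 with TMM scaling and 0.15 with edgeR. The injured value stayed at -0.32 with TMM and -0.29 with edgeR. Estimates were lower in KO for 28 of the 36 in uninjured and 33 in injured muscle. Every KO library was below every WT library for 7 in uninjured (15.5% of all genes) and 12 in injured muscle (8.63%). Ndufs4 (-1.18, limma adjusted p = 0.0927) and Ndufab1 (-1.03, adjusted p = 0.108) had the lowest estimates in uninjured muscle. Ndufa12 (-1.01) and Ndufc2 (-0.68, limma adjusted p = 0.54) had the lowest in injured muscle. The highest were Ndufs3 (0.42) and Ndufa13 (0.30) in uninjured and Ndufb8 (0.20) and Ndufv1 (0.10) in injured muscle, and the lowest limma adjusted p of these 4 was 0.561. Without KO injured replicate 2, 7 of the 32 listed 40S genes and 10 of the 36 complex I genes were called in injured muscle, where 2343 of all 12312 genes tested were called under the same setting.

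Injury was a comparison that the choice of members did not use, and none of the 5 genes changed with it by the test. In WT muscle the log2 change, injured minus uninjured, was -0.12 for Rps3a1 (95% interval -1.02 to 0.78), 0.09 for Rps3a3 (-1.18 to 1.35), -0.18 for Gm15920 (-1.39 to 1.02), -0.51 for Gm11942 (-2.21 to 1.20) and 0.13 for BC002163 (-0.94 to 1.21), each with a limma adjusted p of 1. In KO muscle it was 0.01 for Rps3a1 (-0.89 to 0.91, limma adjusted p = 0.995), -0.28 for Rps3a3 (-1.55 to 0.98, adjusted p = 0.862), -0.23 for Gm15920 (-1.43 to 0.98, adjusted p = 0.882), -0.52 for Gm11942 (-2.23 to 1.19, adjusted p = 0.814) and -0.15 for BC002163 (-1.23 to 0.93, adjusted p = 0.917). The fit did not pair the 2 legs of an animal, so these intervals also hold the spread between animals. They leave room for changes of more than 1 log2 unit in the pseudogenes in either genotype. With the animal as a block, 0 genes were called with injury in WT and 0 in KO muscle. Of all 13337 genes, 0.0% were called by limma with injury in WT (1.29% at an unadjusted p under 0.05) and 0.0% in KO muscle (3.51%), so the absence of calls is not particular to these genes.

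Among the KO animals, each of the 5 genes was higher with injury in some and lower in others. On the log2(RPM + 1) scale Rps3a3 changed by -0.81, -0.28 and 0.24 in replicates 1, 2 and 3, Gm15920 by -0.96, 0.02 and 0.26, and Gm11942 by -0.90, -0.76 and 0.10. BC002163 changed by -0.11, -0.72 and 0.38, and Rps3a1 by -0.02, -0.12 and 0.17. KO replicate 3 was the animal with a higher injured than uninjured level in all 5 genes. The difference between genotypes in the change with injury was 0.13 for Rps3a1, -0.37 for Rps3a3, -0.05 for Gm15920, -0.01 for Gm11942 and -0.28 for BC002163, each with a limma adjusted p of 1, and 0.0% of all genes were called (1.56% at an unadjusted p under 0.05).

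**Figure D5:**
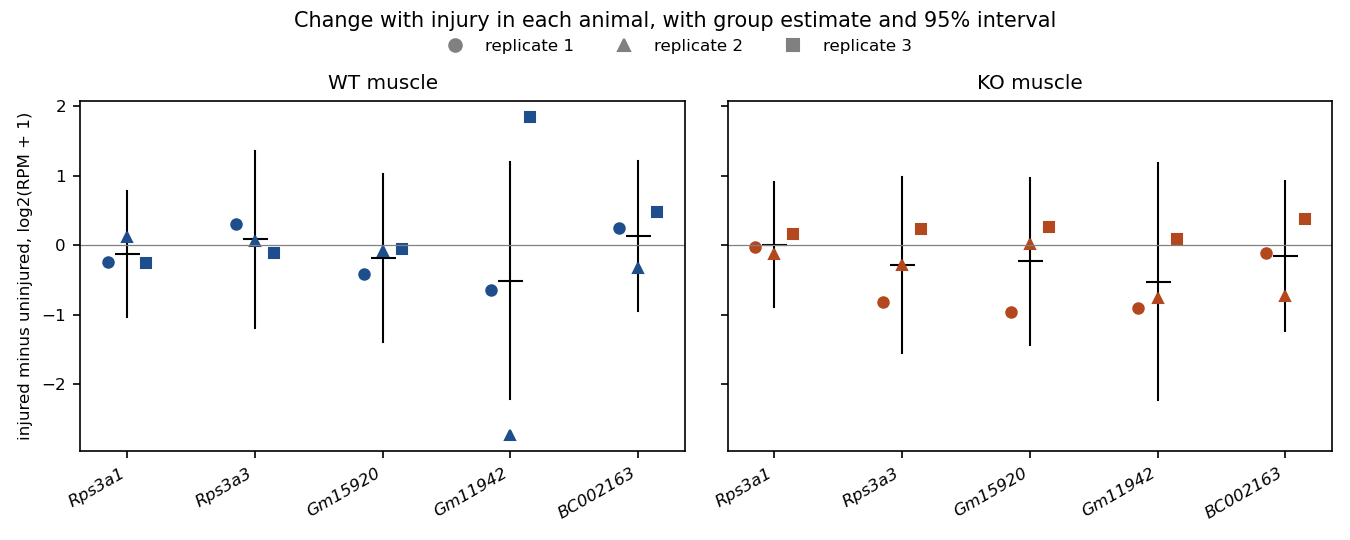
Change with injury on the log2(RPM + 1) scale for the 5 genes in WT and KO muscle; each point is 1 animal, its shape the replicate number, the black dash is the group estimate and the vertical line its 95% interval. The points pair the legs of an animal, while the intervals come from a fit that did not. All 10 intervals include 0, and the widest are those of Gm11942, from -2.21 to 1.20 in WT and from -2.23 to 1.19 in KO muscle.

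None of the genes around the members was called between genotypes. Of the nearest tested genes on both sides of Rps3a1 (10 genes), Rps3a3 (11), Gm15920 (11) and Gm11942 (10), 0 passed the threshold in either injury state, and their lowest limma adjusted p was 0.218. The share of all tested genes that passed was 0.281% in uninjured and 0.269% in injured muscle. The absence of calls among so few neighbours is therefore not particular to them. Pde4d, which spans Rps3a3, changed by 0.39 (limma adjusted p = 0.848) and 0.58 (adjusted p = 0.727), and Rabgef1, which spans Gm15920, by 0.03 (adjusted p = 0.975) and -0.18 (adjusted p = 0.73).

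In the deposited ChIP-seq peak list, from 1 library of an experiment with a Flag antibody in cells labelled as primary myotubes and as satellite cells, 0 of 12898 peaks lay within 10 kb of Rps3a1, Rps3a3, Gm15920, Gm11942, Ndufa12 or Ndufs5. The nearest peak was 35.7 kb from Rps3a1, 683 kb from Rps3a3, 42.1 kb from Gm15920 and 57.9 kb from Gm11942. It was 245 kb from Ndufa12 and 60.7 kb from Ndufs5, whose promoter windows each held 1 E-box match. How many of all genes have a peak within 10 kb was not counted, so the count of 0 is only a description. The list has no replicate, and the peaks and the gene positions use releases of the same GRCm38 (mm10) assembly.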

How the data were processed

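RNA of 12 libraries (3 each of WT uninjured, KO uninjured, WT injured and KO injured hind limb muscle) was analysed from the tables the authors deposited. Per the labels' protocols, total RNA was extracted with Trizol and libraries were made with the TruSeq RNA v2 kit. The deposited values are RPM (reads of a gene scaled to a fixed library total) per gene, and the authors' deposited tables also give log2 fold changes, p-values and q-values of WT against KO, whose sign was turned here to KO over WT. The submitters' processing notes name HISAT2 2.1.0, SAMtools, featureCounts and DESeq2, with Bowtie 1.1.0 and MACS2 2.1.0.20140616, and the builds mm10 and GRCm38.p5. The deposited ChIP-seq peak list holds pileup signal, −log10 p and q values and fold enrichment ratios per the file headers. These are the authors' values.

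The members and all gene lists were chosen with earlier results of these data known. Every RPM value was a whole number of reads (100.0% within 0.1 read), which gave depths of 1880087 to 49392472 reads. Main tests used limma 3.58.1 in R 4.3.3 on log2(RPM + 1), with Benjamini-Hochberg adjustment over all genes that reached 1 RPM in 3 or more libraries of the fit. Genotypes were compared within each injury state. Injury was compared in a fit of all 12 libraries that did not pair the legs, with the animal as a block in an alternative. The log2(RPM + 1) scale understates changes of low genes. Alternatives were a pseudocount of 0.1, other filters, TMM scaling, edgeR 4.0.16 and DESeq2 1.42.0 on the recovered reads, a replicate block, the authors' table and leaving out each library. Limma, edgeR and DESeq2 were also run on simulated data, where a minimum recovery of changed genes was required of edgeR and DESeq2 but not of limma. Named were the members, Myf6, parent genes, other Rps3a copies, lists of 40S and complex I genes (the 2 highest and lowest estimates), the 3 genes most correlated with each pseudogene, the 3 largest changes among pseudogenes called in both states, and overlapping genes. The gene table matched 36249 of 49315 gene names and 4 of the 5 members. Between the legs of the same animal, deviations from group means correlated at a mean r of 0.02 in WT (-0.23 to 0.28) and 0.38 in KO animals (0.02 to 0.63) over 13337 genes, and KO and WT animals share only replicate numbers. Intervals of shares are 95% Wilson intervals.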

Additional observations from a re-analysis of the deposited data

How the results depend on the processing

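Depth limits low levels in WT uninjured replicate 2, the shallowest library, where 1 read is worth 0.532 RPM. The number of genes called in uninjured muscle (35) was 20 with a pseudocount of 0.1, 1 without a filter, 20 with at least 5 RPM in 3 libraries, 110 with TMM scaling, 55 with edgeR, 663 with DESeq2 and 331 in the authors' deposited table, and 3 to 84 when each library was left out. In injured muscle (34) it was 19 without a filter, 427 with DESeq2, 225 in the authors' deposited table and 0 to 2343 when each library was left out, the highest without KO injured replicate 2. The cause was not tested. The share of calls that were higher was 45.7% in uninjured muscle, 50.9% with TMM, 54.5% with edgeR and 24.1% with the replicate block.

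WT and KO animals share only a replicate number. With that number as a replicate block, 752 genes were called in uninjured and 0 in injured muscle (644 at an unadjusted p under 0.05), and Rps3a1 in uninjured muscle passed at the same change of -1.02 (limma adjusted p = 0.0381).

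The differences of the pseudogenes stayed above 4.5 on the log2 scale. With a pseudocount of 0.1, edgeR, DESeq2 and the authors' deposited table, in that order, they were 7.46, 8.57, 8.49 and 8.49 for Rps3a3, 7.25, 7.97, 7.98 and 7.98 for Gm15920 and 7.06, 8.27, 8.30 and 8.30 for BC002163 in uninjured muscle. In injured muscle they were 7.03, 7.44, 7.45 and 7.43 for Rps3a3, 7.47, 8.07, 8.08 and 8.07 for Gm15920 and 6.41, 6.99, 7.01 and 7.04 for BC002163. Gm11942 in uninjured muscle was 6.55 with edgeR. Gm15920 and BC002163 gave no value without a KO library, since they then failed the filter. Without 1 library, the log2 ratios of the summed parent and copy moved by less than the spread between replicates, but that of Ndufs5 and BC002163 in injured muscle ran from -0.06 to 0.38, and that of Rps3a1 and Rps3a3 from -0.10 to 0.21 in uninjured and from -0.02 to 0.10 in injured muscle, so their signs were not stable.

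The injury results of the 5 genes stayed without a call in 225 alternatives, and 40 had the opposite sign. With edgeR and DESeq2 the change of BC002163 in WT muscle (0.13) was 1.13 and 1.08, and the difference between genotypes was -1.29 and -1.25 for BC002163 (-0.28) and -1.14 and -1.10 for Rps3a3 (-0.37). In KO muscle Rps3a1 was -0.28 with TMM, -0.19 with edgeR and -0.20 with DESeq2. Its difference between genotypes was -0.086 with TMM, that of Gm15920 was 0.22 with a pseudocount of 0.1, 0.082 with edgeR and 0.067 with DESeq2, and that of Gm11942 was 0.23 with a pseudocount of 0.1. Leaving out each library gave, in KO muscle, -0.43 to 0.51 for Rps3a1, -0.93 to 0.36 for Rps3a3, -0.87 to 0.29 for Gm15920, -1.16 to 0.13 for Gm11942 and -0.72 to 0.47 for BC002163, and in WT muscle -1.16 to 0.26 for Gm11942. For the difference between genotypes it gave -0.30 to 0.64 for Rps3a1, -1.01 to 0.27 for Rps3a3, -0.69 to 0.47 for Gm15920, -0.78 to 0.64 for Gm11942 and -0.86 to 0.33 for BC002163. The number of genes called with injury in KO muscle was 0 to 1, and the 1 call appeared without KO uninjured replicate 3. Ndufs5 in uninjured muscle was -0.003 without WT uninjured replicate 2 and 0.6 without KO uninjured replicate 3, the lowest and highest of the values without a library. Ndufa12 passed with the replicate block in uninjured muscle (adjusted p = 0.048), and in injured muscle with DESeq2, without KO injured replicate 2 (adjusted p = 0.0155) and in the authors' table.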
